A study of Mus musculus with 4 samples.

Results

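The 40 genes described here are markers, receptors and regulators of the endothelium, the cell layer that lines blood vessels, measured in embryonic mouse kidneys with and without deletion of Sall1. They were chosen by name, and each was read from the array probe whose RefSeq accession maps to it, taking the probe with the highest mean where several did. All 40 were matched to a probe, and all 40 were well above background on all 4 arrays. They stand among 25081 genes and unnamed sequences tested, 15084 of them named. Shares and medians of all genes below are over all 25081, unnamed sequences included.

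The Sall1 knockout group comprised 2 samples of E13.5 embryonic kidneys labelled as Sall1 knockout, with tamoxifen treatment at E12.5. The control group comprised 2 samples of kidneys of the same age, also described as after tamoxifen treatment. Titles of the knockout samples name CreER, a Cre recombinase that tamoxifen activates, while those of the control samples name flox. All 4 samples came from a hybrid of 129 and C57BL/6. The labels name a Sall1CreER line, and they do not say whether control kidneys carried CreER, how many embryos went into a sample, or which litters they came from. An effect of CreER and an effect of Sall1 loss therefore cannot be told apart, and the p-values measure only the spread between these samples.

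Endothelial cells of the fetal kidney assemble into the arteries, the peritubular vessels and the glomerular capillaries. Their growth is directed by vascular endothelial growth factors (VEGF), secreted largely by epithelium and podocytes and bound by receptor tyrosine kinases of the endothelium, and their stability by angiopoietins, which bind the Tie receptors. Transcription factors of the ETS and SOX families hold the endothelial programme, and Notch signalling separates arterial and sprouting cells from the rest. Sall1, a zinc finger gene, acts in the progenitors of the nephron. In whole kidneys, fewer cells of a type and less RNA per cell cannot be told apart.

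Promoters of 6 endothelial genes are shown. Among the 20 of the 40 genes with a promoter in the table, 5 of them had the smallest unadjusted p (Esm1, Eng, Tek, Egfl7 and Calcrl), and Emcn is a defining marker with nearly equal signals. Each covers 250 bases before to 50 bases after the annotated start in RefSeq, build GRCm38.p6, with the first of several starts for Egfl7 and each sequence as the table gives it. Capitals mark the core letters of ETS factor sites, GGAA on either strand.
Tek, chr4:94739039-94739338 (plus strand): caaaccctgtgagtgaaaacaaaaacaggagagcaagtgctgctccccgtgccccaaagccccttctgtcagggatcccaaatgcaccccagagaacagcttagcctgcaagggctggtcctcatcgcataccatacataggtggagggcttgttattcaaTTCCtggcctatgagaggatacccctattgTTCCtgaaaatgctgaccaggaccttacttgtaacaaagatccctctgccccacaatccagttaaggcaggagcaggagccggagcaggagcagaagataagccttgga
Eng, chr2:32646345-32646644 (plus strand): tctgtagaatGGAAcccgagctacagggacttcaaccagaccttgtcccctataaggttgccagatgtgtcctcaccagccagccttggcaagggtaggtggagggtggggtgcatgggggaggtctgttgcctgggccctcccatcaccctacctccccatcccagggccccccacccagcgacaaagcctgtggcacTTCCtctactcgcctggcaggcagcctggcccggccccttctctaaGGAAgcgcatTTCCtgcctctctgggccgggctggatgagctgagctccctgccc
Egfl7, chr2:26580833-26581132 (plus strand): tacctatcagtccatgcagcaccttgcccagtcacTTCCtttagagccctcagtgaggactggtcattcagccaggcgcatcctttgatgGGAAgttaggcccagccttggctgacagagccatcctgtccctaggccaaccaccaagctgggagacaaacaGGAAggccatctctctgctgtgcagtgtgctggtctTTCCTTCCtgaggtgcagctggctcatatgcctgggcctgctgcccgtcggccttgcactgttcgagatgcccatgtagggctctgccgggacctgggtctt
Emcn, chr3:137340828-137341127 (plus strand): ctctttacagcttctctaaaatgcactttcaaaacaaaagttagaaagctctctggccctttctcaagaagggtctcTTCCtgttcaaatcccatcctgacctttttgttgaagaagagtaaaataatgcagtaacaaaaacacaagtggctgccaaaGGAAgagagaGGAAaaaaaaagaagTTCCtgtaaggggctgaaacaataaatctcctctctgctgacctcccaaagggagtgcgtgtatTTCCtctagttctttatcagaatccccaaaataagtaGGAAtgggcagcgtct
Esm1, chr13:113209409-113209708 (plus strand): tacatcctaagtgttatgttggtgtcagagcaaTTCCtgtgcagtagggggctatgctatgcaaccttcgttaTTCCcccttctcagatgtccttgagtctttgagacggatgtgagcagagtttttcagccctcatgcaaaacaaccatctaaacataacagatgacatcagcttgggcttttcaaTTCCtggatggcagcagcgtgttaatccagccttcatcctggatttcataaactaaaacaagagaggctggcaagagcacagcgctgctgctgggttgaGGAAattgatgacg
Calcrl, chr2:84425217-84425516 (minus strand): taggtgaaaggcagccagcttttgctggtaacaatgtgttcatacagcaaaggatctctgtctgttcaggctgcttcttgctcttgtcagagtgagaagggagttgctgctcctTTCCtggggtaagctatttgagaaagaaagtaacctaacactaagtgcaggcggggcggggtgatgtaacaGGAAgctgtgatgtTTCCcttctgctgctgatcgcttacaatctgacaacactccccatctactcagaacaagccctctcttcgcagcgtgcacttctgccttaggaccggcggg
The 20 genes had 25 start sites between them. GGAA was found in the promoters of all 20 and in 96.0% of all 32851 promoters of the table. AACAGGAA, the letters of a composite FOX and ETS site that contain the ETS core, stood in the promoters of Calcrl, Egfl7 and Emcn, which is 12.0% of the 25 promoters against 2.65% of all promoters. Among these 3, Egfl7 was higher, Calcrl lower and Emcn nearly equal in signal, as given below. AACAAT, letters of SOX sites, was found in 4 of the 25 promoters and in 3521 of all 32851. AGATAA, letters of GATA sites, was found in 12.0% against 11.2%. CCGGAA, a longer form of the ETS core, was found in 8.0% against 14.9%. All were searched on both strands and may overlap, and a match describes letters in this window only.

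As a check of the labels, the signal of Sall1 itself was read first. All signals below are log2 values after division by the array's own 75th percentile of spot intensity. Sall1 had 1.03 and 1.07 in the knockout arrays, against 1.79 and 1.81 in the control arrays. Its log2 difference was -0.75 ± 0.056 (SE, n = 2 per group), which did not pass over all genes in limma (adjusted p = 0.126). It passed with normexp background correction (limma adjusted p = 0.0383). It also passed with a variance prior that follows the signal and is fitted robustly (limma adjusted p = 0.00143). Below, this setting is called the prior that follows the signal or the trended robust prior. The labels do not place the deletion in the gene, so it is unknown whether this probe reads the deleted stretch. Of the spots on each array, 64.2% and 60.6% were well above background in the knockout arrays, against 64.1% and 63.3% in the control arrays.

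Across the 40 genes, signals were slightly higher in the knockout kidneys for most genes and lower for a few. The median log2 difference was 0.096, against -0.013 for all genes tested, and the middle of the list ran from -0.0032 to 0.185 (quartiles), against -0.102 to 0.10 for all genes. The differences ranged from -0.63 for Dll4 to 0.50 for Icam1. A positive difference was seen in 29 of 40 genes, which is 72.5% against 46.4% of all genes tested, and in 25 of 40 when arrays were centred on their medians. None of the 40 passed over all genes in limma at an adjusted p under 0.05, where the smallest adjusted p was 0.276 for Esm1. The same test called 0 of 25081 genes and sequences (0.0%), with 3187 of them at an unadjusted p under 0.05. Before adjustment, 7 endothelial genes were higher (17.5%) and 3 lower (7.5%) with p under 0.05, against 6.77% and 5.93% of all genes. Under the alternatives that kept all 4 arrays, 4 to 10 endothelial genes were higher at that level. Without control replicate 2 or without Sall1 knockout replicate 1 only 1 gene was higher at that level, without Sall1 knockout replicate 2 there were 2, and with median centring there were 4.

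**Figure D1:**
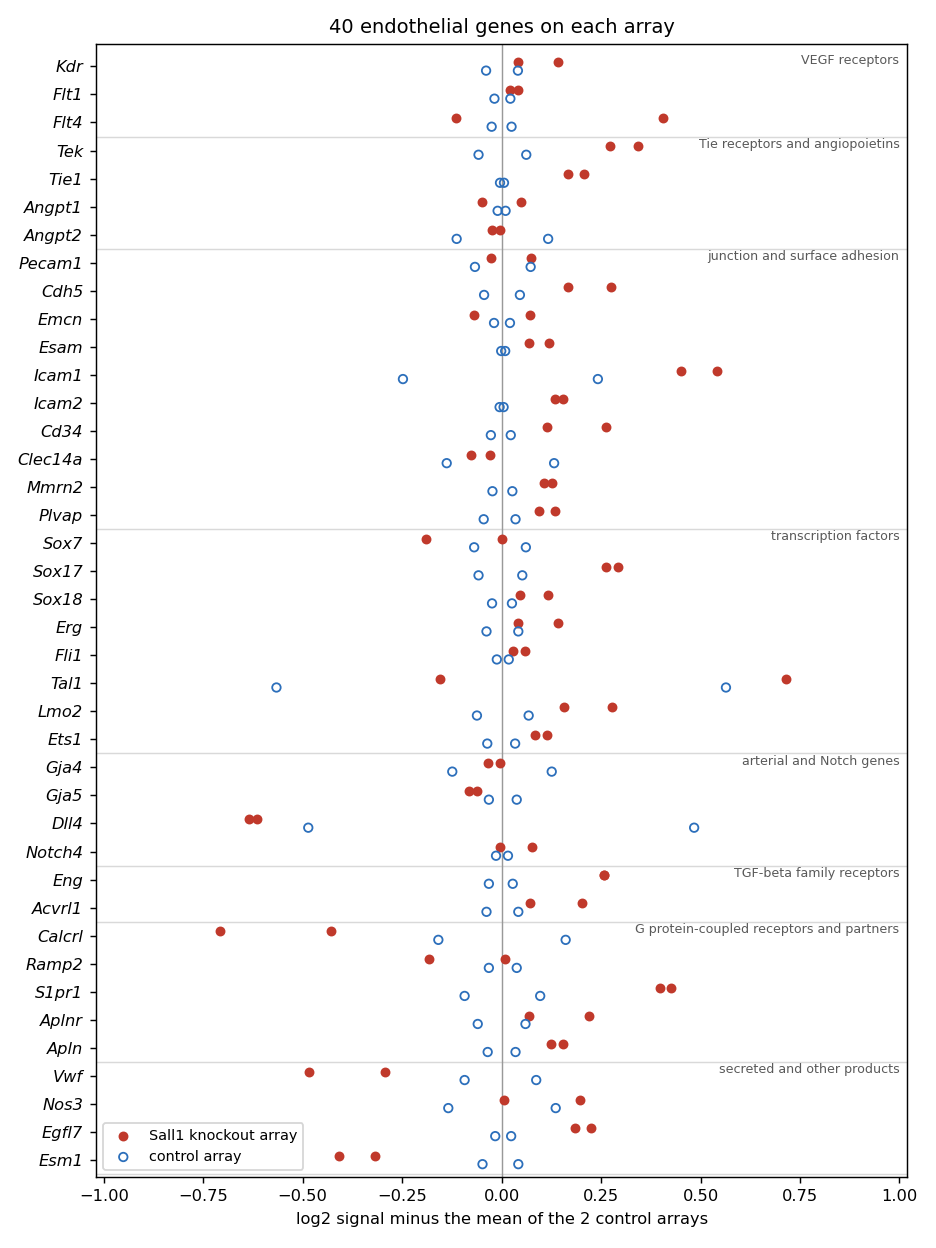
Log2 signal of each of the 40 endothelial genes on each array (x axis, relative to the mean of the 2 control arrays), with genes grouped by role down the page. Filled points are Sall1 knockout arrays and open points are control arrays. In 21 genes both knockout points lie right of both control points, and in 5 genes both lie left of them.

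Read array by array, both knockout values lay above both control values in 21 of the 40 genes and below both in 5. The same held for 21.5% and 27.7% of all genes tested, so 52.5% of the endothelial genes stand beside the first share, and 5 of 40 beside the second. Most of these separations were small. A log2 difference of at least 0.322 in size without overlap was seen for S1pr1 and Icam1 in the higher direction (5.0% of the 40, against 6.26% of all genes) and for Dll4, Calcrl, Vwf and Esm1 in the lower direction (10.0%, against 3.71%). The typical distance between arrays of 1 group, as the median absolute difference over the 40 genes, was 0.076 between the knockout arrays and 0.081 between the control arrays, and the median absolute difference between the groups was 0.128. Over all genes tested those values were 0.09, 0.094 and 0.101. The median signal of the list was 0.272 and 0.307 in the knockout arrays, against 0.118 and 0.231 in the control arrays.

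**Figure D2:**
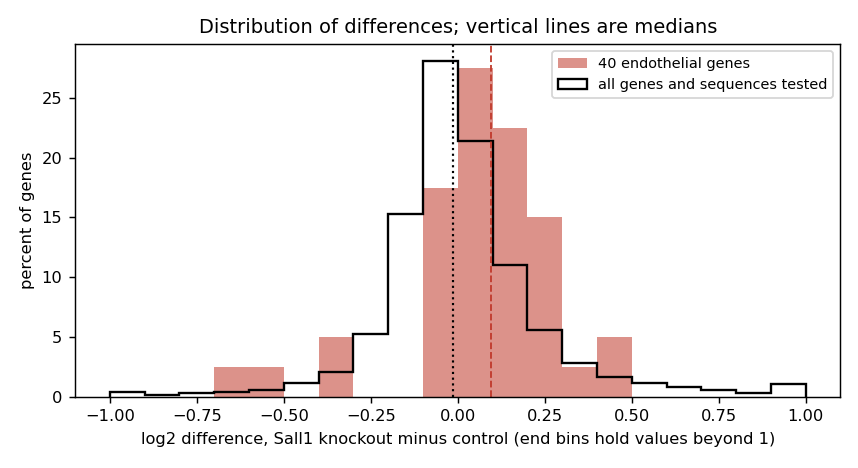
Distribution of log2 differences, Sall1 knockout minus control, in percent of the 40 endothelial genes (filled) and of all 25081 genes and sequences tested (line). The dashed line marks the endothelial median, 0.096, and the dotted line that of all genes, -0.013. Dll4, Calcrl, Vwf and Esm1 form the lower end, apart from the other endothelial genes.

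None of the 3 VEGF receptors was higher or lower without overlap. Kdr, the main signalling receptor for VEGF in endothelium, had 3.78 and 3.88 in the knockout arrays, against 3.70 and 3.78 in the control arrays. The groups met at 3.78, and the log2 difference was 0.089 ± 0.072 (SE), with a 95% interval from -0.117 to 0.294. Flt1, which binds VEGF tightly and limits its signal, had 1.35 and 1.37 in the knockout arrays, against 1.31 and 1.35 in the control arrays. These groups also met, with an interval of the difference from -0.131 to 0.187. Flt4, the receptor for VEGF-C that marks lymphatic and sprouting endothelium, had -2.91 and -3.43 in the knockout arrays, against -3.29 and -3.34 in the control arrays. The knockout values of Flt4 lay on either side of the controls. Its log2 difference was 0.148 ± 0.196 (SE), with a 95% interval from -0.409 to 0.705.

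Both Tie receptors were higher in the knockout arrays without overlap, beside 21.5% of all genes tested, while both angiopoietins overlapped between groups. Tek, the receptor for angiopoietins also known as Tie2, had -0.85 and -0.92 in the knockout arrays, against -1.13 and -1.25 in the control arrays. Both knockout values lay above both control values, by 1.24-fold (log2 difference 0.31 ± 0.074, SE, adjusted p = 0.319 in limma). Tie1, its partner receptor, had 0.25 and 0.29 in the knockout arrays, against 0.09 and 0.08 in the control arrays. It was 1.14-fold higher without overlap (adjusted p = 0.363 in limma). Angpt1, the ligand that activates Tek and comes largely from cells around the vessel, had 0.56 and 0.66 in the knockout arrays, against 0.62 and 0.60 in the control arrays. Angpt2, the context-dependent antagonist of Tek, had -1.17 and -1.19 in the knockout arrays, against -1.28 and -1.05 in the control arrays. For both ligands the groups overlapped, and the 95% intervals of the log2 difference ran from -0.181 to 0.181 for Angpt1 and from -0.291 to 0.266 for Angpt2.

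Of the 10 genes of junctions and the cell surface, 7 were higher in both knockout arrays than in both control arrays, none lower. Over all genes tested those shares were 21.5% and 27.7%. The median log2 difference of the 10 was 0.117. Cdh5, the cadherin of endothelial junctions, had 1.81 and 1.92 in the knockout arrays, against 1.69 and 1.60 in the control arrays. The values did not overlap, and Cdh5 was 1.17-fold higher (log2 difference 0.22 ± 0.074, SE, adjusted p = 0.38 in limma). Icam1, an adhesion molecule that inflamed endothelium presents to leukocytes and that leukocytes also make, had -3.56 and -3.65 in the knockout arrays, against -3.86 and -4.35 in the control arrays. It was 1.41-fold higher (adjusted p = 0.414 in limma) and the control arrays lay further apart from each other than the knockout arrays did. Without control replicate 2 the log2 difference of Icam1 was 0.254, and with normexp background correction it was 0.213. Icam2, its constitutive relative, was 1.11-fold higher, Cd34, a sialomucin of endothelium and blood progenitors, 1.14-fold, the VEGF-binding matrix protein gene Mmrn2 1.09-fold, Plvap, which forms the diaphragms of fenestrae, 1.08-fold and the junction molecule Esam 1.07-fold.

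The other surface markers overlapped between groups. Pecam1, the adhesion molecule used most widely to stain vessels, had -0.54 and -0.64 in the knockout arrays, against -0.54 and -0.68 in the control arrays. Emcn, a sialomucin of venous and capillary endothelium, had 0.20 and 0.06 in the knockout arrays, against 0.11 and 0.15 in the control arrays. The groups overlapped in both, and the 95% intervals of the log2 difference were -0.21 to 0.258 for Pecam1 and -0.215 to 0.217 for Emcn. Clec14a, a lectin of sprouting endothelium, overlapped as well, with a log2 difference of -0.054 ± 0.112 (SE).

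Among the 8 transcription factors 6 were higher without overlap, beside 21.5% of all genes tested. The median log2 difference of the 8 was 0.095. Sox17, a factor of arterial endothelium, had -0.10 and -0.07 in the knockout arrays, against -0.31 and -0.42 in the control arrays. It was 1.21-fold higher (log2 difference 0.27 ± 0.069, SE, adjusted p = 0.324 in limma), and a separate Sox17 probe gave a log2 difference of 0.305. Among its relatives of the same SOX subgroup, Sox18 was 1.06-fold higher without overlap and Sox7 overlapped at a log2 difference of -0.093 ± 0.098 (SE). Erg, an ETS factor largely restricted to endothelium, had -2.91 and -3.01 in the knockout arrays, against -3.09 and -3.01 in the control arrays, with the nearest values of the groups equal at 2 decimals. The related Fli1 and Ets1 were 1.03-fold and 1.07-fold higher without overlap, and Lmo2, a partner of blood and endothelial factors, 1.16-fold.

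Tal1, a helix-loop-helix factor of red cell precursors and early endothelium, varied between arrays of 1 group more than between groups. It had 0.45 and 1.32 in the knockout arrays, against 0.04 and 1.17 in the control arrays. Replicate 2 was the high array and replicate 1 the low one in each group. The median signal of the 10 erythroid genes tested was 2.36 and 3.67 in the knockout arrays, against 1.93 and 3.67 in the control arrays, which is high and low on the same arrays. The erythroid genes thus moved with Tal1 from array to array, and their part in its signal was not tested.

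Of the 4 arterial and Notch genes none was higher without overlap and 2 were lower, beside 21.5% and 27.7% of all genes tested. The median log2 difference of these 4 was -0.048. Sox17, the arterial factor counted above with the transcription factors, was higher without overlap. Of the further endothelial list described below, Hey1 was higher without overlap, Hey2 lower and Efnb2 overlapped, with log2 differences of 0.138, -0.652 and 0.106. Dll4, the Notch ligand of arterial and tip cells, had -2.73 and -2.75 in the knockout arrays, against -1.63 and -2.60 in the control arrays. Both knockout values lay below both controls, with a log2 difference of -0.63 ± 0.357 (SE, adjusted p = 0.51 in limma), and the high value of control replicate 1 set most of its size. Without control replicate 1 the difference was -0.142. Gja5 and Gja4, the connexins of arteries, had log2 differences of -0.072 ± 0.060 and -0.023 ± 0.104 (SE), the first without overlap and the second with it. Notch4, a receptor of the same pathway found mostly in endothelium, overlapped at 0.034 ± 0.062 (SE).

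Both genes that serve BMP and TGF-beta signals were higher without overlap, beside 21.5% of all genes tested. Eng, the co-receptor endoglin, had 0.36 and 0.36 in the knockout arrays, against 0.13 and 0.07 in the control arrays. The knockout arrays were nearly identical and above both controls (log2 difference 0.26 ± 0.058, SE, adjusted p = 0.303 in limma). Acvrl1, the endothelial receptor that works with endoglin, was 1.10-fold higher, with -0.20 and -0.07 in the knockout arrays, against -0.23 and -0.31 in the control arrays.

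Receptors coupled to G proteins went both ways. S1pr1, the receptor for sphingosine phosphate that steadies vessel walls and also guides lymphocytes, had -1.06 and -1.03 in the knockout arrays, against -1.36 and -1.55 in the control arrays. It was 1.33-fold higher (log2 difference 0.41 ± 0.087, SE, adjusted p = 0.29 in limma). Calcrl, the receptor for adrenomedullin, had -4.19 and -3.91 in the knockout arrays, against -3.64 and -3.32 in the control arrays. It was 1.48-fold lower without overlap (log2 difference -0.57 ± 0.165, SE, adjusted p = 0.356 in limma), and with normexp background correction the difference was -0.123. Ramp2, the accessory protein that makes Calcrl an adrenomedullin receptor, overlapped between groups, with 4.24 and 4.43 in the knockout arrays, against 4.39 and 4.46 in the control arrays. The apelin receptor gene Aplnr and its ligand gene Apln, a tip cell product, were 1.11-fold and 1.10-fold higher without overlap.

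Secreted products held 2 of the 3 lower genes at an unadjusted p under 0.05. Esm1, a proteoglycan gene of tip cells induced by VEGF, had 0.16 and 0.25 in the knockout arrays, against 0.61 and 0.52 in the control arrays. It was 1.28-fold lower without overlap (log2 difference -0.36 ± 0.072, SE, adjusted p = 0.276 in limma). Vwf, the clotting factor of endothelium and platelets, had -1.0 and -1.19 in the knockout arrays, against -0.62 and -0.80 in the control arrays. It was 1.31-fold lower without overlap (adjusted p = 0.351 in limma). Egfl7, a secreted regulator of vessel shape, had 5.45 and 5.49 in the knockout arrays, against 5.29 and 5.25 in the control arrays, and was 1.15-fold higher (adjusted p = 0.351 in limma). Nos3, the endothelial nitric oxide synthase, overlapped, with a log2 difference of 0.099 ± 0.131 (SE).

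Signals that reach the endothelium were read from a list of 29 further genes tested, of which 8 were higher and 0 lower before adjustment (p under 0.05), beside 6.77% and 5.93% of all genes, and 0 passed over all genes. Their median log2 difference was 0.093. Vegfa, the main VEGF of the kidney, had 2.15 and 2.24 in the knockout arrays, against 2.27 and 2.23 in the control arrays, and overlapped. Vegfb and Pgf, ligands of Flt1, were 1.07-fold and 1.12-fold lower without overlap. Vegfc and Vegfd, the ligands of Flt4 that drive lymphatic growth, were higher without overlap. Vegfc had 2.58 and 2.69 in the knockout arrays, against 2.16 and 1.89 in the control arrays, and was 1.53-fold higher (adjusted p = 0.272 in limma). Vegfd had 1.63 and 1.62 in the knockout arrays, against 0.98 and 0.65 in the control arrays, and was 1.75-fold higher (adjusted p = 0.239 in limma). Sema3a, a secreted guidance cue that binds Nrp1, had 0.95 and 0.74 in the knockout arrays, against -0.04 and 0.07 in the control arrays (log2 difference 0.83 ± 0.101, SE, adjusted p = 0.191 in limma, and 0.00795 with the prior that follows the signal). Neither group overlapped the other in these 3 genes. Angpt4, a further Tek ligand, was not well above background in either control array and was at least 1.58-fold higher in the knockout arrays. That bound sets the lowest signal well above background in place of the controls. Angpt4 had -4.80 and -4.26 in the knockout arrays, against -5.31 and -5.14 in the control arrays (adjusted p = 0.363 in limma). It is among the 8 genes counted as higher, and it passed the background filter only through the knockout arrays, where it is high.

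The other vessel signals with an unadjusted p under 0.05 were smaller in size. Tgfb1, which signals to mural and endothelial cells, differed by 0.27 on the log2 scale, Sphk1, a kinase that makes the S1pr1 ligand, by 0.27, the endothelin receptor gene Ednrb by 0.29 and Pdgfb, which recruits pericytes, by 0.19, all positive and without overlap. Angptl4, Adm, which encodes the Calcrl ligand adrenomedullin, and Efna1 were higher without overlap, with log2 differences of 0.30, 0.12 and 0.067. The remaining 15 overlapped between groups. Among them the Notch ligands Jag1, Jag2 and Dll1 had log2 differences of 0.027, 0.12 and -0.15. The guidance cues Slit2, Slit3 and Sema3e had -0.076, 0.27 and -0.081, and the angiogenesis inhibitor Thbs1 0.093. Hif1a and Epas1, the oxygen-regulated factors, had -0.058 and -0.021. Pdgfa, Pdgfd, Angptl2, Sphk2, Tgfb2 and Cxcl12 lay between -0.081 and 0.21. Apela, Gdf2, Bmp10 and Edn1 were not tested.

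**Figure D3:**
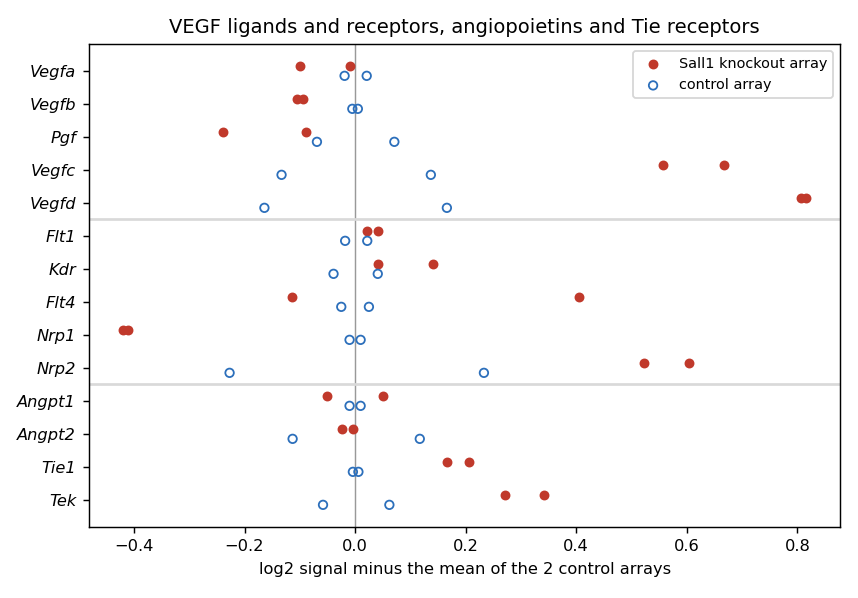
Log2 signal on each array (x axis, relative to the mean of the 2 control arrays) of VEGF ligands, VEGF receptors with their neuropilin partners, and the angiopoietins with the Tie receptors. Filled points are Sall1 knockout arrays and open points are control arrays. Vegfc, Vegfd, Nrp2, Tie1 and Tek lie right of the controls and Nrp1 lies left, while Kdr, Flt1 and both angiopoietins overlap them.

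A list of 50 further endothelial genes tested, none of them among the 40, had a median log2 difference of 0.101, of which 13 were higher and 4 were lower before adjustment (p under 0.05), beside 6.77% and 5.93% of all genes, and 0 passed over all genes. Stab2, a scavenger receptor of sinusoidal endothelium that is abundant in fetal liver, had 0.18 and 0.11 in the knockout arrays, against -0.46 and -0.37 in the control arrays. It was 1.47-fold higher (adjusted p = 0.191 in limma). Nrp1, a VEGF co-receptor that stroma and neurons also make, had -0.33 and -0.34 in the knockout arrays, against 0.09 and 0.07 in the control arrays. Its log2 difference was -0.42 ± 0.055 (SE, adjusted p = 0.203 in limma), without overlap. Cldn5, the claudin of endothelial tight junctions, was 1.29-fold and Rhoj, an endothelial GTPase, 1.34-fold higher, both without overlap. Of this list's named genes, under the variance prior that follows the signal, limma called Stab2, Cldn5 and Rhoj higher and Nrp1 lower, with adjusted p of 0.0179, 0.0213, 0.0221 and 0.037, and none of the 40.

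Lymphatic genes were few, with 6 tested, 0 at an unadjusted p under 0.05 and a median log2 difference of 0.165. Prox1, the factor that defines lymphatic identity, did not pass the background filter. Lyve1 had -2.21 and -2.44 in the knockout arrays, against -2.40 and -3.15 in the control arrays, and overlapped. Without control replicate 2 the log2 difference of Lyve1 was 0.078, against 0.45 with all arrays. Ccl21a, a lymphatic chemokine, had 2.48 and 3.02 in the knockout arrays, against 2.64 and 0.26 in the control arrays, where control replicate 2 stood apart. Pdpn, which podocytes also make, was 1.07-fold higher without overlap. Ccbe1, which helps activate VEGF-C, was 1.18-fold higher without overlap, but its log2 difference of 0.23 was 0.023 as a mean over its probes and 0.057 without control replicate 2. The 2 others, Foxc2 and Itga9, were lower without overlap, with log2 differences of -0.11 and -0.075. Of the 6 genes 2 were thus higher and 2 lower without overlap, beside 21.5% and 27.7% of all genes tested. Foxc2 is also counted in the further endothelial list. Mural cell genes, from the pericytes and smooth muscle around vessels, had a median of 0.09 over 15 tested. Of these, 1 was higher and 1 lower before adjustment (limma p under 0.05), beside 6.77% and 5.93% of all genes. Without overlap 6 were higher and 1 lower, beside 21.5% and 27.7% of all genes tested. The pericyte genes Pdgfrb, Rgs5, Abcc9, Kcnj8 and Higd1b overlapped between groups. Their log2 differences were -0.00039, -0.0098, 0.0056, 0.079 and -0.012. Des, an intermediate filament gene also made by skeletal muscle, was 1.43-fold lower (adjusted p = 0.272 in limma, and 0.0458 with the prior that follows the signal). The smooth muscle genes Tagln and Acta2 were 1.41-fold and 2.03-fold higher and the pericyte gene Cspg4 1.14-fold higher, all without overlap. Acta2 had 3.04 and 2.59 in the knockout arrays, against 2.26 and 1.32 in the control arrays. Without control replicate 2 its log2 difference was 0.551. The median signal of 9 skeletal muscle genes was 3.21 and 2.70 in the knockout arrays, against 2.23 and 0.626 in the control arrays. That median ranked the arrays in the same order as Acta2, and the part of skeletal muscle in the Acta2 signal was not tested.

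Leukocyte, liver and skeletal muscle markers were mostly higher in the knockout arrays, while erythroid genes mostly overlapped between groups. Over all genes tested, 21.5% were higher and 27.7% lower without overlap. Leukocyte genes were higher by a median log2 difference of 0.501 over 11 tested, 10 of them higher without overlap and 1 lower, with a summed signal of 49.1 and 48.1 times the 75th percentile in the knockout arrays, against 48.8 and 46.2 in the control arrays. Itgam was the lower gene, with 5.20 and 5.24 in the knockout arrays, against 5.33 and 5.26 in the control arrays, and it makes up most of that sum. Without it, a choice made after its values were seen, the other 10 summed to 12.3 and 10.4 in the knockout arrays, against 8.63 and 7.81 in the control arrays. Fcgr3 was 1.49-fold and Cx3cr1 1.5-fold higher. The log2 difference of Fcgr3 was 0.571, and 0.326 with normexp background correction. Liver genes were higher by a median of 1.69 over 10 tested, all 10 without overlap (Trf 2.27-fold, Ttr 3.49-fold), with a summed signal of 43.7 and 40.4 in the knockout arrays, against 13.9 and 20.2 in the control arrays. Skeletal muscle genes were higher by a median of 1.31 over 9 tested (Acta1 2.47-fold, Myl4 2.22-fold), with a summed signal of 90.7 and 61.8 in the knockout arrays, against 51.6 and 22.4 in the control arrays. All 10 liver genes passed the background filter, and Ckm of the muscle list, Cd68 and Spi1 of the leukocyte list, and Hbb-b1 and Ahsp of the erythroid list were not tested. Platelet genes, listed because megakaryocytes also make Vwf, had a median of 0.126 over 10 tested, 4 higher and 1 lower without overlap. Gp1ba differed by 0.49 and Gp1bb by 0.31 on the log2 scale, and by 0.163 and 0.176 with normexp background correction. Itga2b, the lower one, differed by -0.33. Erythroid genes had a median of 0.229 over 10, of which 9 overlapped. Klf1 and Gata1 had log2 differences of 0.98 and 0.77, which were 0.135 and -0.087 without control replicate 1. The embryonic globins Hbb-y, Hba-x and Hbb-bh1 had 0.036, 0.0031 and -0.25. The part of these cells in the endothelial differences was not tested.

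**Figure D4:**
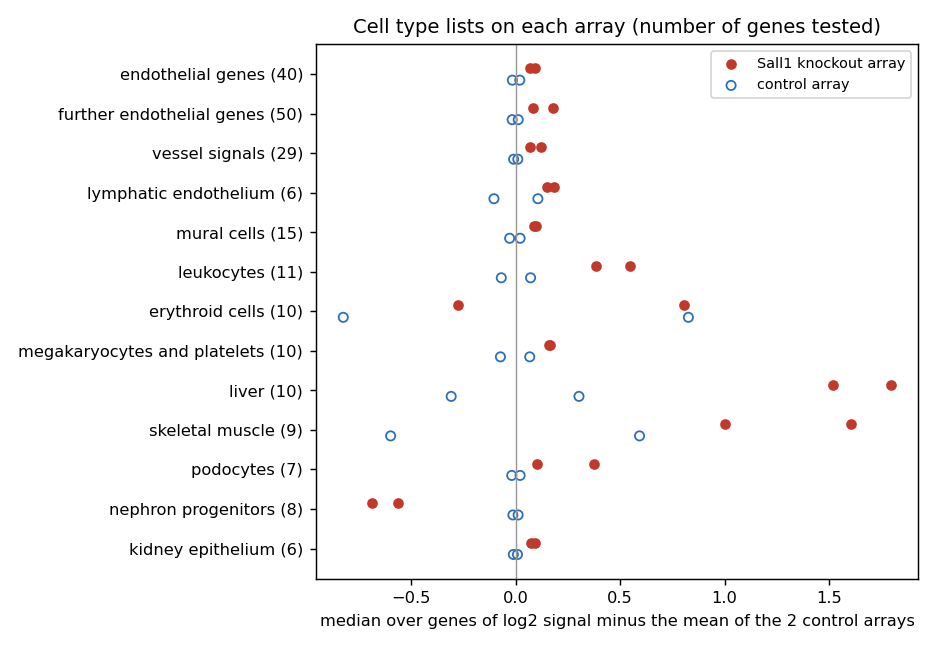
Median over each list of the log2 signal on each array (x axis, relative to the mean of the 2 control arrays), for the 40 endothelial genes and 12 other lists, with the number of genes tested in brackets. Filled points are Sall1 knockout arrays and open points are control arrays. Endothelial genes stand at 0.072 and 0.095 in the knockout arrays, against 0.02 and -0.015 in the control arrays, while liver genes stand at 1.80 and 1.52, against -0.308 and 0.304.

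Genes of the nephron progenitors, a list that includes Sall1, had a median log2 difference of -0.627 over 8 tested. Of these, 7 were lower without overlap, beside 27.7% of all genes tested. Cited1 was 4.6-fold lower (adjusted p = 0.0819 in limma, 0.00487 with normexp correction and 4.97e-05 with the prior that follows the signal) and Osr1 1.81-fold lower. Epithelial genes of the kidney had a median of 0.097 over 6 tested, with Ret -0.28 and Pax2 0.18, and podocyte genes 0.262 over 7, all 7 positive, with Ptpro 0.74 (0.399 with normexp correction). The summed signal of the 40 endothelial genes was 152 and 162 times the 75th percentile in the knockout arrays, against 144 and 146 in the control arrays. Beside the endothelial median of 0.096 stand 0.097 for kidney epithelium and 0.09 for mural cells, and no difference between these lists was tested.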

How the data were processed

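Total RNA of 4 samples was hybridised to 1-colour Agilent arrays as Cy3-labelled cRNA, per the labels. Spots were read by Agilent Feature Extraction 10.7.3.1 on array design 028005, per the file headers. The deposited signal used here is a linear intensity, from which the software had subtracted background and spatial trends. Arrays were not scaled to each other, as the headers state. In the authors' deposited value table, 100.0% of 55249 single-spot probes had this intensity within 1%.

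Control spots and 147 to 174 spots per array marked as outliers were left out, signals were divided by the 75th percentile of the array (534 and 521 in the knockout arrays, 597 and 547.5 in the control arrays) and set to log2, and spots of a probe were averaged. A probe was kept if either group had it well above background on each of its 2 arrays. RefSeq accessions were matched without versions to a gene table of GRCm38.p6 (26407 of 55681 probes), and 1 probe per gene was used. Of the 40 genes 31 had 1 probe. The 6 further probes above background on all arrays differed in the same direction as the probe used, and the other 3 were below background on 3 or 4 arrays.

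Groups were taken from the genotype label, and replicate numbers follow accession order. The comparison used lmFit and eBayes of limma 3.58.1 under R 4.3.3 (two-sided, default prior with 1.79 prior and 2 residual degrees of freedom), with Benjamini-Hochberg adjustment over all 25081 genes and sequences. SE and 95% intervals are those of this fit. The script was tested on simulated data. Precision is limited by the number of arrays, with no saturated spots. Figures were drawn with matplotlib 3.10.9 under Python 3.11.15.

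The members and lists were chosen with earlier results of these data known. Values of every array are given for members with an unadjusted p under 0.05, a log2 difference of at least 0.322 in size without overlap, the highest or lowest signal, or a place among 8 defining markers (Pecam1, Cdh5, Kdr, Flt1, Tek, Tie1, Emcn and Erg). Flt4, Angpt1, Angpt2, Tal1, Acvrl1 and Ramp2 were given in the same way after their values were seen, and Nrp2 was added to a plot. Hey1, Hey2 and Efnb2 were also named after their values were seen. Of the vessel signals every gene was named, of the further endothelial, lymphatic and mural lists the 4 genes with the smallest p, and of other lists the 2 smallest, of which 1 podocyte gene is not reported here. Alternatives tried were normexp background correction (on median spot and background signals), other scaling, filters, spot and probe handling, another variance prior, array weights, the deposited table and each array left out.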

Additional observations from a re-analysis of the deposited data

How the results depend on the processing

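Under the 14 alternatives the median log2 difference of the 40 genes stayed between 0.058 (median centring) and 0.107 (quantile normalization), and between 0.072 and 0.099 when 1 array was left out. The median of all genes tested moved from -0.013 to -0.051 with median centring and to 0.027 without a background filter, and the endothelial median exceeded it by 0.069 to 0.116. The number of genes called over all genes was 0 in the main setting, 41 with normexp background correction and 301 with the trended robust prior, and 0 when any 1 array was left out. No member was called in any of these, and the smallest adjusted p for a member was 0.0627 (Esm1, trended robust prior). Members without overlap numbered 26, with 20 under median centring and 27 at most elsewhere, and 31 to 34 when 1 array stood alone for a group, where overlap is less frequent by construction. Those higher without overlap numbered 21, 15 under median centring and 23 to 27 with an array left out, and those lower numbered 5, 3 with normexp correction and 7 to 9 with an array left out. Members higher at an unadjusted limma p under 0.05 numbered 7. That count was 10 under quantile normalization, 8 with normexp correction, 4 under median centring and 4 without a background filter.

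Of the 40 genes, 28 had the same direction under every alternative run and 12 did not. Median centring turned Flt1 to -0.011, Pecam1 to -0.015, Emcn to -0.038 and Notch4 to -0.0043. Angpt1, at -7.5e-05, turned to 0.011 with normexp correction, 0.0088 with quantile normalization, 0.0014 with marked spots kept and 5.3e-05 in the deposited table, and Angpt2 turned to 0.057 with normexp correction. Leaving out an array gave ranges that cross 0 for Angpt1 (-0.046 to 0.045), Angpt2 (-0.125 to 0.10), Pecam1 (-0.048 to 0.096), Emcn (-0.069 to 0.071), Notch4 (-0.0041 to 0.073), Flt4 (-0.11 to 0.41), Ramp2 (-0.186 to 0.0048), Clec14a (-0.187 to 0.079), Gja4 (-0.144 to 0.098), Nos3 (-0.037 to 0.235) and Tal1 (-0.285 to 0.845). Gata1, an erythroid gene, was -0.087 without control replicate 1 and 1.63 without control replicate 2. Trf, a liver gene, was called with normexp correction (limma adjusted p = 0.043) and the trended robust prior (0.00941), and Cx3cr1 with the trended robust prior (0.0363). The range was -1.11 to -0.142 for Dll4, 0.254 to 0.744 for Icam1 and -0.728 to -0.404 for Calcrl. The cause of these shifts was not tested. No paired analysis was possible because replicate numbers here only follow the order of the samples and the titles share no number between the groups.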
